A study of Homo sapiens with 2 samples.

Results

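The genes of MHC class I and its peptide loading complex were examined in SW620, an established cell line from a human colon carcinoma. The rule named 9 genes (HLA-B, HLA-C, HLA-E, HLA-F, B2M, TAP1, TAP2, TAPBP and TAPBPL) and took every probe that the platform's annotation gives for them. In all 7 of the 9 genes had a probe, 1 each, among 24459 gene probes and 16685 genes measured. No probe was matched to HLA-B or HLA-C, so their expression was not analysed here. One culture carried a control lentivirus and the other, of genotype "CDR1AS expressing cells", expressed CDR1AS, a circular RNA known for binding the microRNA miR-7. Both were kept in DMEM with serum under normal culture, and each was measured on 1 one-colour array. The labels do not say whether the lines were pools or clones, or which promoter drove CDR1AS. The series asked which transcripts depend on this circular RNA. Each group being a lone array, replicate error is unknown, so no test was made and every difference is one between 2 arrays.

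MHC class I molecules show peptides from inside the cell to CD8 T cells and natural killer cells. The proteasome cuts proteins into peptides, the transporter TAP carries them into the endoplasmic reticulum, and tapasin with its chaperones loads them onto a heavy chain paired with beta-2 microglobulin. Many of these genes are known to be induced by interferons through elements in their promoters, and class I genes also respond to NF-kB and to the transactivator NLRC5.

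Promoters of 6 of the 7 measured genes are shown, since interferon and NF-kB elements are a well known feature of class I promoters, present in some of these windows and not in others. For TAP1 and TAPBPL, which have a pair of starts each, the window of the outer start is printed. Windows are the 250 bases before the RefSeq start on GRCh38.p14, written along the gene's own strand. Capitals mark matches on either strand to 5 motifs. The first is the interferon-stimulated response element, taken as a pair of GAAA blocks 2 bases apart. The second is the kB element of NF-kB, taken as 10 bases that open with GGG, have a T at positions 6 and 7 and close with CC. The others are the box CCAAT, bound by the NFY factor, the core of the cyclic AMP response element (TGACG, bound by CREB and its relatives), and the gamma-activated site of STAT factors (TTCNNNGAA).
HLA-F, chr6:29723184-29723433, plus strand: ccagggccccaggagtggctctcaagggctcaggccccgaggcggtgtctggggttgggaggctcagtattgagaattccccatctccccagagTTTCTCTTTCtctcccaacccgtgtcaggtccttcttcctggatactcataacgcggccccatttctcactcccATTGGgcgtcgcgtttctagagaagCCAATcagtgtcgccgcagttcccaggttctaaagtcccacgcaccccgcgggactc
B2M, chr15:44711267-44711516, plus strand: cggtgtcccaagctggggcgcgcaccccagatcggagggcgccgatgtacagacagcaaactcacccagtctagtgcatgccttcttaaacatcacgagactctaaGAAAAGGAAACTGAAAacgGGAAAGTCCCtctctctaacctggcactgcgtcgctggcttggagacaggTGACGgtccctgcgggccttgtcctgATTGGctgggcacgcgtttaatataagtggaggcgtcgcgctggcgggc
TAP1, chr6:32853705-32853954, minus strand: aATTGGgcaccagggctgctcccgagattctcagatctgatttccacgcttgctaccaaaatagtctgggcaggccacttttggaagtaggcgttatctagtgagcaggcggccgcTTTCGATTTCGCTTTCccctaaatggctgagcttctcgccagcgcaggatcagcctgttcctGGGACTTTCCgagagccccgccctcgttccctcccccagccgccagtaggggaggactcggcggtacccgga
TAP2, chr6:32838740-32838989, minus strand: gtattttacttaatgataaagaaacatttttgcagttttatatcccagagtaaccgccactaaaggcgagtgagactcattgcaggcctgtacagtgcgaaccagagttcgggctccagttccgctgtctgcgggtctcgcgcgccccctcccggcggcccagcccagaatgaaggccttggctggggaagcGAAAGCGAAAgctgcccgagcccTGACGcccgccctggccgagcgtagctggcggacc
TAPBP, chr6:33314079-33314328, minus strand: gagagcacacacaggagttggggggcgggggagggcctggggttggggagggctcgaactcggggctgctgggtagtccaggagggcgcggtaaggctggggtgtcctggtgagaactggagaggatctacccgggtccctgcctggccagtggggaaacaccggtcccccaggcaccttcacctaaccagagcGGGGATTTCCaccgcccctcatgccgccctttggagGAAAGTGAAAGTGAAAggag
TAPBPL, chr12:6451399-6451648, plus strand: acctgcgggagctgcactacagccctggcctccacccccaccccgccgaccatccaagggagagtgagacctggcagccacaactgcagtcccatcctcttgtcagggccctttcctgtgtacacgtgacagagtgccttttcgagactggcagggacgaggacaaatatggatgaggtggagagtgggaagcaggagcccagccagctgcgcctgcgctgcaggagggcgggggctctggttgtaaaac

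Of the 9 genes 8 had such a window, 10 windows in all. Matches below are counted by gene, whereas the shares beside them are counted by window. Counted by window, the interferon element was in 5 of the 10, and so was the kB element. The interferon element was found for 5 of the 8 genes, namely HLA-F, B2M, TAP1, TAP2 and TAPBP, and in 3.02% of all 35116 windows. It was not found in either window of TAPBPL, the measured gene with the lowest ratio below, nor at the inner start of TAP1. In B2M, TAP1 and TAPBP it occurred as overlapping matches that share a GAAA block. The kB element was found for HLA-B, B2M, TAP1, TAPBP and TAPBPL, where the match was GGGGATTTCC before the inner start, and in 5.07% of all windows. HLA-F and TAP2 had no kB match, and the outer window of TAPBPL held none of the 5 motifs. B2M, TAP1 and TAPBP thus held both elements. The NFY box was found for HLA-B, HLA-C, HLA-F, B2M and TAP1 (32% of all windows) and the cyclic AMP core for HLA-B, HLA-C, B2M and TAP2 (21.2%). The gamma-activated site was found only at the inner start of TAP1 (6.57% of all windows). These are matches of letters, not measured binding. Promoter sequence of HLA-E was not analysed here.

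Ratios come from spot intensities put through the normexp background correction with an offset of 50, quantile normalization over both arrays and log2, called the main setting here. The background limit of an array is the mean of its blank spots plus 2 SD, and all 7 genes were above it on both arrays. All 7 measured genes were lower on the CDR1AS array, by up to 1.57-fold, and 0 were past 2-fold. With the local background column as background, 5 of the 7 were below 0. In bulk RNA fewer expressing cells and less RNA per cell cannot be told apart. TAPBPL was lowest, followed by HLA-E and TAP1, and these 3 had a log2 ratio of −0.32 or lower, the smaller threshold used here. The median log2 ratio (CDR1AS expressing over control) of the 7 genes was −0.27, against −0.01 over all genes measured. Among all genes 52.7% were below 0, 7.04% at −0.32 or lower and 7.5% at 0.32 or higher. The share at −0.32 or lower varied with spot level, taken on the array where it was lower. It was 3.03% of 9289 genes under 2 times the limit, where TAP2, TAPBP and TAPBPL lay. At 5 to 20 times, the level of HLA-E and TAP1, it was 14.1% of 2454 genes. At 100 or more times, the level of HLA-F and B2M, it was 8.38% of 167. At least 2-fold lower were 0.575% of all genes, and 1.33% were past 2-fold either way. The genes were chosen with earlier results of these arrays known, so these counts describe the genes and are not independent evidence of a direction. A yardstick of spot error came from repeated positive-control spots (24 per array of each kind). For a ratio of 2 spots it was an SD of 0.16 on the log2 scale for one kind and 0.28 for the other. These control spots were bright, and only HLA-F and B2M lay at such a level, with ratios between the 2 SDs in size. For the kind with an SD of 0.16 the raw means were 40405 under control lentivirus and 43834 with CDR1AS. For the kind with an SD of 0.28 they were 7457 and 11002. The spot error of the 5 dimmer genes was not measured at their level. The SDs cover spot-to-spot error on an array. They leave out such differences between the arrays and the spread between cultures.

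**Figure D1:**
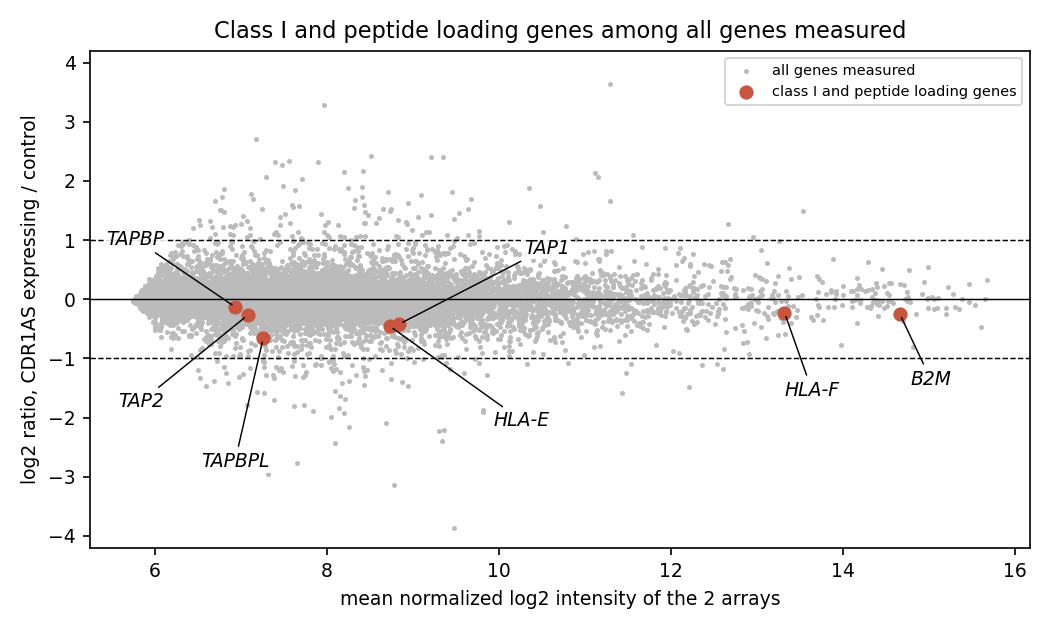
Log2 ratio (CDR1AS expressing over control) against the mean normalized log2 intensity of the 2 arrays, with 1 point per gene for the 16685 genes measured and dashed lines at 2-fold. The 7 class I and peptide loading genes (red) lie between −0.65 and −0.13, below 0 and inside the dashed lines.

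B2M encodes beta-2 microglobulin, the light chain of every class I molecule. Its spot read 25809 under control lentivirus and 25836 with CDR1AS, 373 and 358 times the background limit. The raw spots were thus nearly equal, and the lower value appeared once the arrays were normalized. The log2 ratio was −0.25 with quantile normalization (1.19-fold lower), −0.15 with cyclic loess and −0.04 with scaling to a common median. In the deposited value table B2M was 12264 under control lentivirus and 11789 with CDR1AS, a ratio of −0.06. Among the 167 genes that were 100 or more times the limit on both arrays, the median log2 ratio was 0.00 with quantile normalization and 0.14 with scaling to a common median. B2M was therefore below the median of the genes at its level in both settings, while its distance from 0 depended on the setting.

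HLA-F encodes a class I heavy chain found mainly inside the cell. Its spot read 10223 under control lentivirus and 9701 with CDR1AS, so it was lower before any normalization. Its log2 ratio was −0.22 (1.17-fold lower), and the deposited values were 4839 and 4407, a ratio of −0.14. Among all genes 11.8% had a ratio as low or lower. With the local background column the ratio was 3.35, the opposite direction. The heavy chain genes are close paralogs, and the sequence of the probe was not analysed here, so signal from other class I transcripts in this spot cannot be told apart. Probes named for 2 other class I sequences stood closer to 0. HLA-G, a class I gene known from trophoblast, had spots of 1049 and 1115 and a log2 ratio of −0.04. The pseudogene HLA-L, chosen after seeing its value, had spots of 6703 and 7037 and a ratio of 0.04.

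HLA-E presents leader peptides of other class I chains to the NKG2 receptors of natural killer cells. Its spot read 490 under control lentivirus and 391 with CDR1AS, 7.09 and 5.43 times the limit. The log2 ratio was −0.45 (1.37-fold lower) and the deposited values, 202 and 147, gave −0.46. Of all genes 3.67% were as low or lower. With the arrays scaled to a common median the HLA-E ratio was −0.39, and with the local background column it was 0.31, the opposite direction.

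TAP1 and TAP2 form the transporter that moves peptides from the cytosol into the endoplasmic reticulum. The TAP1 spot read 520 under control lentivirus and 424 with CDR1AS, a log2 ratio of −0.42 (1.34-fold lower), with 4.23% of all genes as low or lower. Its deposited values were 217 and 162, a ratio of −0.42 as well. The TAP2 spot read 157 and 142, close to the limits of 69.1 and 72.1, with a log2 ratio of −0.27. On the deposited scale, which subtracts the blank level and adds no offset, TAP2 was 43.4 and 33.2, a ratio of −0.39. In size the TAP2 ratio lay between the control-spot SDs of 0.16 and 0.28, which were measured on far brighter spots. Under the local background column TAP1 was −0.49 and TAP2 −0.11. The RNA values of both transporter genes were thus lower on the CDR1AS array, TAP1 on a spot further above the limit than TAP2.

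TAPBP encodes tapasin, which bridges TAP and the empty class I molecule. Its spot read 138 under control lentivirus and 136 with CDR1AS, and its log2 ratio of −0.13 was the smallest in size of the 7. Its deposited values were 34.2 and 30.2, a ratio of −0.18. In size this ratio was below both control-spot SDs, which were measured on far brighter spots.

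TAPBPL encodes the tapasin-related protein, a peptide editor that acts outside the loading complex. Its spot read 200 under control lentivirus and 141 with CDR1AS, 2.89 and 1.95 times the limit. The log2 ratio was −0.65 (1.57-fold lower), and 1.72% of all genes were as low or lower. The deposited values, 63.8 and 32.6, gave a ratio of −0.97 (1.96-fold lower), and an offset of 16 gave −0.84. The smaller size in the main setting comes with the offset of 50, which is large beside the net signal of this spot (134 and 71.3 above the mean of the blank spots). TAPBPL lies on chromosome 12 and B2M on chromosome 15, whereas the other measured genes lie on chromosome 6, so genes outside the MHC region were among those that were lower.

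**Figure D2:**
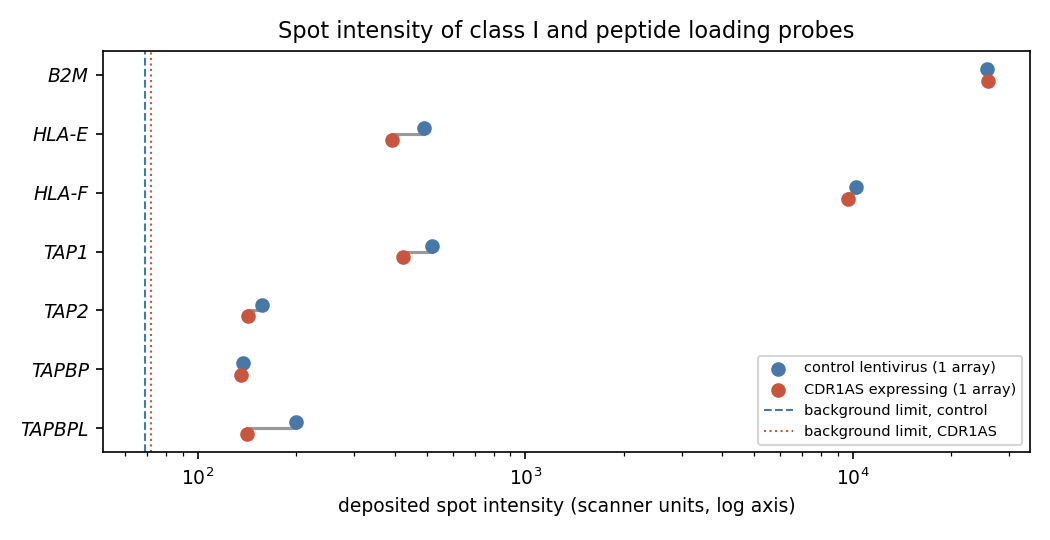
Deposited spot intensity on a log axis for each probe, 1 point per array, with dashed and dotted lines at the background limits of 69.1 and 72.1. The control spot is brighter for 6 of the 7 genes, and for B2M the spots are nearly equal at 25809 and 25836.

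Before normalization 6 of the 7 spots were dimmer on the CDR1AS array, although its blank spots were brighter (69.5 ± 1.30, SD over 384 spots, against 65.9 ± 1.60). Position on the array was checked too, and the median log2 ratio of the block that held each probe lay between −0.01 and 0.00. The local background column of the spot files was a different matter. For HLA-F it read 96.9% of the spot itself under control lentivirus and 26.5% with CDR1AS, and for HLA-E 96.1% and 82.5%. Used as the background it turned both ratios positive, to 3.35 for HLA-F and 0.31 for HLA-E, while the other 5 genes stayed below 0, from −0.85 for TAPBPL to −0.11 for TAP2. Over all gene probes the column followed the spot (Pearson's r of log2 values across probes 0.977 under control lentivirus and 0.942 with CDR1AS, and probes are not independent replicates). It was therefore not used in the main setting.

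**Figure D3:**
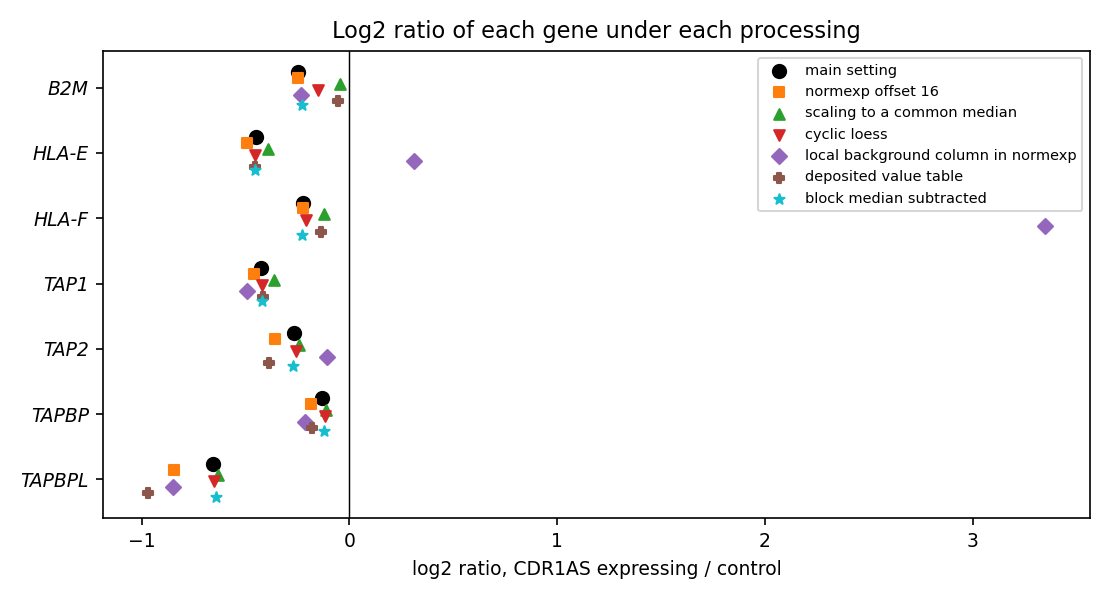
Log2 ratio of each gene (CDR1AS expressing over control) in the main setting (black circles) and 6 alternatives. The other 3 alternatives, which change the filter on dim probes or the choice of probe, leave these ratios as they are or leave the gene out. Apart from HLA-E (0.31) and HLA-F (3.35) with the local background column, every point is below 0.

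Genes around the loading step were read from lists fixed for this pathway. The immunoproteasome was lower with its activator: all 6 measured genes were below 0, 5 of them at −0.32 or lower, with a median of −0.48. PSMB10 (log2 ratio −0.95), PSMB9 (−0.56) and PSMB8 (−0.53, other probe −0.11) encode the inducible catalytic subunits. PSME1 (−0.43) and PSME2 (−0.36) encode the activator cap, and POMP (−0.22) an assembly factor. With the local background column PSME2 was above 0 (1.80), PSMB9 (−0.23), PSME1 (−0.24) and PSMB10 (−0.08) were closer to 0, PSMB8 (−1.51) and POMP (−0.51) were lower, and the median was −0.24. Along chromosome 6 the order in the RefSeq annotation is TAP2, PSMB8, TAP1, PSMB9, and the log2 ratios of these neighbours were −0.27, −0.53, −0.42 and −0.56. TAP1 and PSMB9 are transcribed away from each other, and the start regions of PSMB9 and of the outer start of TAP1 (250 bases before to 50 after the start) overlap by 13 bases.

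Peptidases that trim peptides were mixed, with 7 of 9 measured genes below 0, 3 at −0.32 or lower and a median of −0.16. The cytosolic peptidase genes NPEPPS (−0.50, other probe −0.38), THOP1 (−0.41) and BLMH (−0.40) were lowest. ERAP1 and ERAP2, the trimming enzymes of the endoplasmic reticulum, had log2 ratios of −0.26 and −0.13 (other probe −0.12), both on dim spots of 101 and 103 on the control array. NRDC (−0.16) and IDE (−0.07) were closer to 0, and TPP2 (0.13) and LAP3 (0.28) were above it. With the local background column THOP1 (0.52) and NRDC (0.08) were above 0, TPP2 (−0.28) was below it, and the median was −0.12.

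The chaperones and glycan quality control genes of the endoplasmic reticulum lay near 0 in the main setting. The list has 8 genes, of which 7 had a probe. Of 7 measured genes 4 were below 0 and 3 above, 0 were past 0.32 either way, and the median was −0.00. CANX, which encodes calnexin, had a log2 ratio of −0.22. CALR (calreticulin, −0.02), GANAB (−0.00) and MOGS (−0.03, other probe −0.01) were close to 0, as were HSPA5 (0.05), UGGT1 (0.07) and PDIA6 (0.11). With the local background column CANX (2.49) and PDIA6 (2.66) were far above 0, MOGS (−0.68) was below it, and the median was 0.01.

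Transcripts of the factors that drive class I genes went both ways in the main setting. Of 7 measured genes 3 were below 0 and 4 above, with a median of 0.10. NLRC5, the class I transactivator, was dim (92 and 103) with a log2 ratio of 0.10. RFX5 (−0.33) and RFXAP (−0.25), subunits of the RFX complex, and NFYB (−0.26) were below 0. NFYA (0.10), NFYC (0.14, other probes 0.01 and −0.04) and CREB1 (0.24) were above it. Under the local background column NLRC5 (−0.10), NFYA (−0.02) and NFYC (−0.07) were below 0 and only CREB1 (0.33) stayed above it. RFX5, RFXAP and NFYB stayed below 0, and the median was −0.10. The stricter filter, at least 2 times the limit on both arrays, gave a median of −0.06. CIITA, the class II transactivator, was not above background on either array. Among 14 measured genes of interferon and STAT signalling 9 were below 0 and 5 above, with a median of −0.08, and 0 were past 0.32 either way. By their brightest probes they ranged from STAT3 (−0.25) to the receptor gene IFNGR1 (0.20). Other probes lay outside this range, at −0.49 for the receptor gene IFNGR2 (brightest probe −0.11) and 0.29 for IFNAR2 (brightest probe 0.03).

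**Figure D4:**
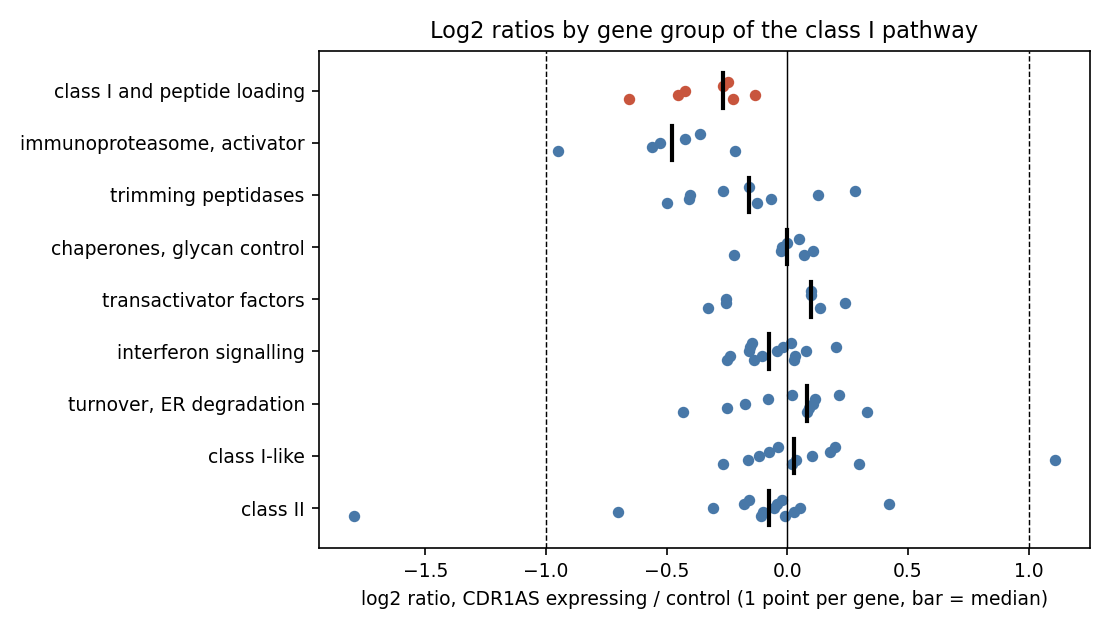
Log2 ratio of each measured gene (CDR1AS expressing over control, brightest probe) in the class I and peptide loading genes (red) and 8 related gene groups (blue), with the median of each group as a bar and dashed lines at 2-fold. The medians run from −0.48 for the immunoproteasome group to 0.10 for the transactivator factors.

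Of the turnover genes 7 of 11 were above 0, with a median of 0.08, from the ubiquitin ligase gene WWP2 (−0.43) to the ubiquitin-conjugating enzyme gene UBE2G2 (0.33). Under the local background column WWP2 (−1.25) and UBE2G2 (−0.86) were both below 0, and the median was 0.14. The class I-like genes had 7 of 12 above 0 and a median of 0.03. ULBP2, a stress-induced ligand of the NKG2D receptor, was the only one past 2-fold, with spots of 124 under control lentivirus and 271 with CDR1AS. Its log2 ratio was 1.11 (2.16-fold higher), where 0.755% of all genes were at least 2-fold higher. With the local background column it was within 2-fold (0.62). HFE, the iron-regulating class I-like gene, was lowest (−0.27).

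HLA-DPB1 of class II was not above background on either array. Of 14 measured genes of the list 11 were below 0 and 3 above, with a median of −0.08. CD74, the invariant chain gene, read 69.6 under control lentivirus, just over the limit of 69.1, and 69.9 with CDR1AS, below the limit of 72.1. The lysosomal protease gene CTSS was 3.47-fold lower (−1.79), with spots of 396 and 133. HLA-DMA, which encodes a chain of the class II peptide editor, was highest (0.42, other probe 0.18).

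Of the colon epithelial markers some were bright and others dim. KRT18 gave the brightest spot of the control array (56040, against 47565 on the CDR1AS array), and EPCAM read 8538 and 6334. KRT20 (82.8 and 92.4), CDX1 (83.2 and 83.4) and LGALS4 (122 and 121) were dim, and CDH17 was above background on the CDR1AS array only. The vimentin gene VIM had the highest log2 ratio of all genes measured (3.64). Among 12 leukocyte markers with a probe PTPRC, CD4, CD8A and MS4A1 were not above background on either array, and the 8 measured ones had a median log2 ratio of −0.03, from CD14 (−0.13) to CD79A (0.24). The fibroblast genes COL1A1, COL1A2 and COL3A1 were not above background on either array, and the medians of the 5 measured fibroblast and 6 endothelial markers were −0.05 and 0.01. Fibroblast markers ran from LUM (−0.34) to PDGFRB (0.06). Endothelial markers ran from KDR (−0.15) to PECAM1, whose spots of 66.4 and 98.3 were above background on the CDR1AS array only, at least 1.43-fold higher (0.51). Under the local background column PECAM1 was 0.03. The 10 measured epithelial markers had a median of −0.05, with 6 below 0 and 4 above. Of these KRT18 (−0.47, other probes −0.05 and −0.10), EPCAM (−0.54, other probe −0.76) and CDX2 (−0.82) were past −0.32 and KRT19 (0.83) was higher, beside the class I genes, and their part in the class I values was not tested.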

How the data were processed

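Per the labels, total RNA of 2 SW620 cultures was isolated with Trizol, amplified as amino allyl RNA and labelled with Cy5. The deposited intensity is, per the file headers, a spot median from 3 scanner gains. The sources used here do not say how the gains were joined. The deposited value table was found to be a straight line of each array's intensity (largest residual 0.0559 units), blank level subtracted, both medians at 25.

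Of 24460 gene probes 1 was flagged and left out. With limma 3.58.1 (R 4.3.3), intensities went through normexp without the local background (offset 50), quantile normalization and log2. A check on arrays simulated from the control array set a limit only for bright probes and for the median of unchanged probes. It set none for probes as dim as those of TAP2, TAPBP and TAPBPL. A spot was above background past the mean of 384 blank spots plus 2 SD. The brightest probe stood for a gene, which counted as measured where above background on at least 1 array, the dim side of a gene seen on 1 array being raised to the lowest value above background. Of 21706 probes with a symbol 21674 matched RefSeq (GRCh38.p14) by gene identifier. Every class I probe was described. Every measured gene was named of the lists on chaperones and glycan quality control, peptidases, the immunoproteasome and transactivator factors. Of the other lists the lowest, the highest and any past 2-fold were named. Genes, lists and thresholds were chosen with earlier results of these data known, so no test was made on them. The number of arrays limits the precision, and 9 alternatives were tried.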

Additional observations from a re-analysis of the deposited data

How the results depend on the processing

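Cyclic loess, no filter on dim probes, the median of a gene's probes and subtraction of the block median (the last chosen after seeing the data) each moved all 25 results by less than the smaller spot SD of 0.16, or for counts by less than 1.5 times. With an offset of 16, TAPBPL was −0.84, and 229 genes were at least 2-fold higher and 172 lower, against 126 and 96 in the main setting. With scaling to a common median, B2M was −0.044. In the deposited value table, limited to genes with a value on both arrays, B2M was −0.057 and TAPBPL −0.97, the class II list had a median of −0.38 and the fibroblast markers −0.24, and 544 genes were at least 2-fold higher and 369 lower. With the local background column, HLA-E was 0.31, HLA-F 3.35 and TAPBPL −0.85, the immunoproteasome list had a median of −0.24 and the transactivator factors −0.10, and 787 genes were at least 2-fold higher and 580 lower. A stricter filter (2 times the limit on both arrays) left 4 class I genes, all 4 below 0, and 75 genes at least 2-fold higher. It removed TAP2, TAPBP and TAPBPL, whose spots were too close to the limit. Where a value moved, the cause was not tested beyond what the setting itself changes. No paired analysis was possible because each group has 1 array. Dim spots limit what can be seen: the spot error of TAP1, TAP2, TAPBP, TAPBPL and HLA-E was not measured at their level.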

Other observations

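Between HLA-F and TAPBP on chromosome 6, 127 other genes were measured, and as a group they were close to 0. Of these 76 were below 0 and 51 above, with a median of −0.04. The lymphotoxin gene LTB was lowest (−1.90, spots of 1714 and 501) and C6orf15 highest (1.34, spots of 69.4 and 165). The control spot of C6orf15 was just over the limit of 69.1, and with the local background column its ratio was 0.48. The complement gene C2, picked on seeing its value, stood at −0.92 with spots of 156 and 94.9.

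Genes that hold the interferon element in the 250 bases before a start had about the same share below 0 as genes in general. Their median log2 ratio was −0.006, against −0.007 for genes with a window. A somewhat larger share was past −0.32, a difference that was not tested. The share at 0.32 or higher was not counted for them, and their spot levels were not compared. Of 446 genes measured with the interferon element 52.7% were below 0, against 52.6% of 13099 genes with a window. At −0.32 or lower on the log2 scale were 9.64% against 7.12%. With the class I genes left out 52.2% of 441 were below 0 and 9.52% at −0.32 or lower. Of 49 genes with both this and the kB element 59.2% were below 0 and 12.2% (6 genes) at −0.32 or lower. For the kB element 56% of 970 genes were below 0 and 8.87% at −0.32 or lower. The class I genes were not left out of the kB set or of the set with both elements. B2M, TAP1 and TAPBP are in both sets and TAPBPL is in the kB set, all below 0, and TAP1 and TAPBPL were at −0.32 or lower. These shares thus partly restate the chosen genes.

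IFI30, a lysosomal thiol reductase gene of class II peptide supply also picked on seeing its value, was 1.62-fold lower (−0.70), with spots of 1081 and 735.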
